A study of Mus musculus with 24 samples.

Results

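Collagen chains were examined in the perigonadal fat of AdipoQ-LPL mice and control mice after a short exposure to a high fat diet. The group was defined by symbol: it holds each annotated gene whose symbol is Col, a number, the letter a and a number. This gave 43 genes on 47 transcript clusters, of 24647 genes and 27037 clusters with a symbol, and all 47 collagen clusters were above the floor used for testing (a mean of at least 5 on the log2 scale in either genotype). A gene with several clusters is given by its cluster of highest mean. The genes were described as 11 fibrillar collagens (types I, II, III, V, XI, XXIV and XXVII), 8 basement membrane collagens (types IV, XV and XVIII) and 24 others.

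The 12 AdipoQ-LPL mice carried an LPL transgene (genotype AdipoQ-LpL -/+), which is driven by the adiponectin promoter and so is active in adipocytes, and the 12 control mice did not carry it (AdipoQ-LpL -/-). They were littermates. All were males on the C57BL/6 background that were 9.5 weeks old at the start by the labels, and all were given a diet with 60% of calories from fat for 10 days, so that no chow-fed mice enter these comparisons. RNA from the whole fat pad of each mouse was measured on an Affymetrix mouse exon array. The deposited values are on the log2 scale after RMA, which corrects background, normalizes the arrays and summarizes the probes of a cluster. In whole tissue, fewer cells of a type and less RNA per cell cannot be told apart. Log2 differences are AdipoQ-LPL minus Control. The fold criterion of the study corresponds to 0.32 on this scale.

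The arrays fell into 2 sets that follow the animal numbers in the sample descriptions. The first set (animals 289 to 437) had 8 AdipoQ-LPL and 5 control mice with array medians of 6.86 to 6.97, and the second set (animals 842 to 877) had 4 AdipoQ-LPL and 7 control mice with array medians of 7.22 to 7.29. These medians are over the tested clusters of each array, and the deposited values hold this offset after RMA. The labels do not say what separates the sets. With genotype in the model, the median tested cluster was 0.33 higher in the second set and the 43 collagens were all higher in it, by 0.04 (Col17a1) to 0.71 (Col6a5). The number set was therefore included in the limma model, and the values of mice are given within a set. Arrays of Control 3, Control 7 and AdipoQ-LPL 8 stood apart from the others along the first principal component of the residuals, which held 40.6% of the variance after removal of genotype and set means. Lpl differed by -0.02 between genotypes and Adipoq by 0.12, and neither was called by limma (adjusted p = 0.86 and 0.58). The labels do not say whether the probes read the transgene. Lpl averaged 13.5 ± 0.18 in AdipoQ-LPL mice and 13.6 ± 0.15 in control mice (log2, SD, n = 12 each).

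Collagens are secreted proteins in which alpha chains wind around each other into a helix. Fibrillar collagens pack into the cable-like fibers of the interstitial matrix, and basement membrane collagens form the sheet that wraps each adipocyte and each capillary. Type VI collagen forms beaded filaments at the border between cell and fiber and is abundant around adipocytes. In adipose tissue the fibrillar chains are made mainly by fibroblast-like stromal cells, whereas type IV chains are also made by adipocytes and endothelial cells, and enlarging fat pads are known to remodel both kinds of matrix.

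Promoter sequences are shown for chains whose values are followed below: Col1a2 and Col3a1, which are on different chromosomes, Col4a2, whose start adjoins that of its partner Col4a1, and Col6a5, which varied most between mice. RefSeq promoter windows (build GRCm38.p6), which run from 250 bases before to 50 after the start of a gene, were found for 35 of the 43 genes. The windows are chr6:4505368-4505667 on the plus strand for Col1a2, chr1:45311288-45311587 on the plus strand for Col3a1, chr8:11312555-11312854 on the plus strand for Col4a2 and chr9:105960594-105960893 on the minus strand for Col6a5. They are written from 5′ to 3′ on the strand of the gene, and capitals mark TATA, CCAAT and GC boxes found on either strand, whose letters are given with their shares after the sequences.
Col1a2: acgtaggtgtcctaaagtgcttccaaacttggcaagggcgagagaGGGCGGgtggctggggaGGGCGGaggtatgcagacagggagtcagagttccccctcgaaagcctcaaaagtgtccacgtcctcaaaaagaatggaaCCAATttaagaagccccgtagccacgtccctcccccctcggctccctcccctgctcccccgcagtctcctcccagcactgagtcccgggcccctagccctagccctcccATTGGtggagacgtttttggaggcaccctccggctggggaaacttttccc
Col3a1: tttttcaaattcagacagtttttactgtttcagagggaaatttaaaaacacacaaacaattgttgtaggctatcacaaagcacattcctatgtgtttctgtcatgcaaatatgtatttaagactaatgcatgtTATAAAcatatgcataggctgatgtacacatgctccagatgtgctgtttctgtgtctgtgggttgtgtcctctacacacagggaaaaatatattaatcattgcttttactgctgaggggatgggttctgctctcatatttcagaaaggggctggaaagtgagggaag
Col4a2: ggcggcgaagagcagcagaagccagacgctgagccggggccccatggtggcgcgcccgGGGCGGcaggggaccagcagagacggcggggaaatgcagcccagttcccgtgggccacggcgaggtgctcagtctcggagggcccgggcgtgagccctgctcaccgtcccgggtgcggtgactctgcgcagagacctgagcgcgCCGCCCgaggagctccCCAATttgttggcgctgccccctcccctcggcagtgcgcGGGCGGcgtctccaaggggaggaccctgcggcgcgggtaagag
Col6a5: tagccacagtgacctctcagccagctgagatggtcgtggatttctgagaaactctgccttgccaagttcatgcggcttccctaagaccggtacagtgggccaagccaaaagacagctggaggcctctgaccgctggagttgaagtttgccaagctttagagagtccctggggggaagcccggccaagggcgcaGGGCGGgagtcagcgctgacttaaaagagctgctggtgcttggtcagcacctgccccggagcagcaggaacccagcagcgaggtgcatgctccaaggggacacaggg
The Col1a2 window held 2 CCAAT boxes and 2 GC boxes. The Col3a1 window held 1 TATA box and no other match. The Col4a2 window held 1 CCAAT box and 3 GC boxes, and 78 of its bases are also in the Col4a1 window, because these genes lie head to head with annotated starts 21 bases apart on opposite strands. The Col6a5 window held 1 GC box. The GC box was searched as GGGCGG and was present in 22 of the 35 collagen windows, beside 35.9% of all 27025 promoter windows of the same length. The box searched as CCAAT was present in 12 of the 35, beside 37.9% of all windows. For the TATA box the letters were TATAAA, and 5 of the 35 held it, beside 14.2% of all windows. No motif overlapped another in the windows printed. These matches are letters in a window and not evidence of binding.

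The first comparison asked whether any collagen chain differed between AdipoQ-LPL and control mice. None of the 43 was called by limma, the lowest adjusted p among them being 0.51, and 2 of the 20208 tested clusters were called (0.0099%). None met both criteria of the study, a log2 difference beyond 0.32 in either direction with p under 0.02 before adjustment, which 0.272% of the tested clusters met. At an unadjusted p under 0.05, 4 collagens were higher and 1 lower in AdipoQ-LPL mice, that is 5 of 43 against 8.37% of all tested clusters. The median log2 difference was 0.01 over the 43 collagens, with 24 above 0 and 19 below, beside a median of 0.01 and 53.7% above 0 over all tested clusters. The 95% interval stayed between -0.32 and 0.32 for 35 of the 43 genes. It reached further for Col1a1, Col4a3, Col4a4, Col6a5, Col12a1, Col14a1, Col15a1 and Col25a1.

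**Figure D1:**
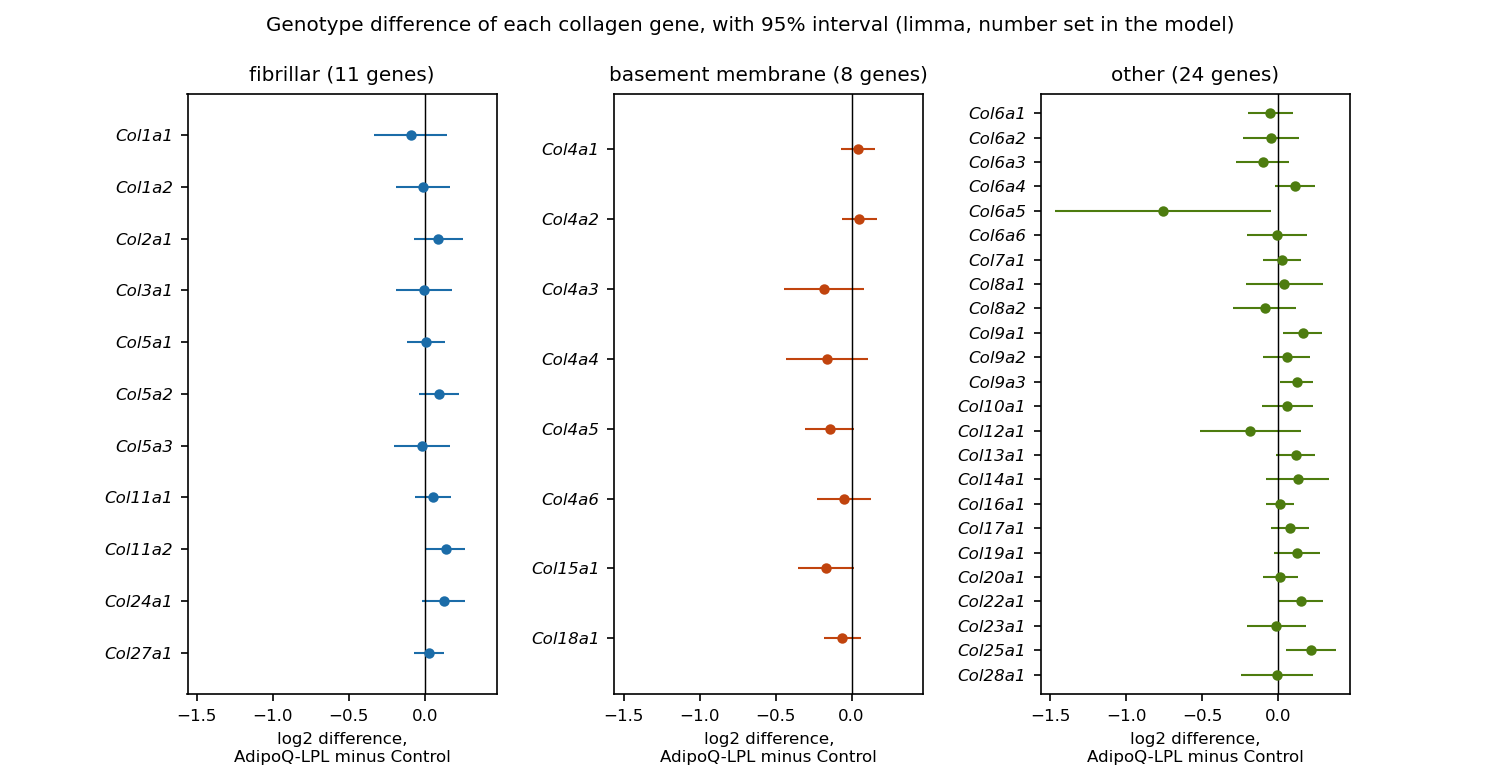
Log2 difference (AdipoQ-LPL minus Control, x axis) of each of the 43 collagen genes (y axis) with its 95% interval from limma, in fibrillar, basement membrane and other collagens. Intervals of 38 genes include 0, and the widest is that of Col6a5, from -1.47 to -0.05.

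Among the fibrillar collagens, 7 of 11 were above 0 and 4 below, and the class median was 0.03. Without the number set in the model it was -0.09, beside a median of -0.08 over all tested clusters in that fit. Col1a1 encodes the main chain of type I collagen, the most abundant fiber of the interstitium. In the first set Col1a1 was 10.33 to 11.06 with a median of 10.57 in AdipoQ-LPL mice, and 10.65, 10.78, 11.12, 10.27 and 10.45 in control mice 1 to 5. In the second set it was 10.61, 10.90, 11.18 and 10.87 in AdipoQ-LPL mice 1 to 4, and 10.42 to 11.49 with a median of 11.02 in control mice. The genotypes overlapped in both sets, and the difference was -0.09 ± 0.12 (SE, limma adjusted p = 0.83). The partner chain Col1a2 differed by -0.01 ± 0.09. Col1a2 was 10.23 to 10.81 in AdipoQ-LPL mice and 10.24 to 10.88 in control mice of the first set, and in the second set 10.71 to 11.08 in AdipoQ-LPL mice and 10.42 to 11.12 in control mice. The AdipoQ-LPL range of Col1a2 in the second set lay inside the Control range.

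Col3a1, the single chain of type III collagen, which forms thin fibers with type I, was 10.78 to 11.38 in AdipoQ-LPL mice and 10.87 to 11.35 in control mice of the first set. Mice of the second set had 11.33 to 11.75 (AdipoQ-LPL) and 11.07 to 11.82 (Control). Both genotypes had a median of 11.19 in the first set, and the modeled difference was -0.01 ± 0.09 (SE). Type V chains, which sit in the core of type I fibers and set their width, likewise overlapped between genotypes. Col5a1 was 8.95 to 9.26 in AdipoQ-LPL mice and 9.03 to 9.45 in control mice of the first set, and 9.56 to 9.69 in AdipoQ-LPL and 9.31 to 9.74 in control mice of the second set, with a modeled difference of 0.01 ± 0.06. Col5a2 was 8.35 to 8.59 in AdipoQ-LPL mice and 8.27 to 8.60 in control mice of the first set, and 9.13 to 9.25 in AdipoQ-LPL and 8.64 to 9.36 in control mice of the second set, with a difference of 0.09 ± 0.06. Col5a3, the remaining type V chain, was 8.55 to 9.13 in AdipoQ-LPL and 8.80 to 9.35 in control mice of the first set, and 9.28 to 9.84 in AdipoQ-LPL and 9.28 to 9.80 in control mice of the second set, and differed by -0.02 ± 0.09. None of these type V values was called. A dimmer Col5a1 cluster with 2 markers gave 0.21 ± 0.08 (unadjusted p = 0.0157, adjusted p = 0.52), whereas the brighter one, with 31 markers, gave 0.01. The dimmer cluster of Col1a2 gave -0.04, and those of Col6a1 gave -0.18 and -0.03.

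The fibrillar genes of lowest p were Col11a2 and Col24a1, followed by Col5a2. Col11a2 encodes a chain of type XI collagen, known from cartilage. It was 5.79 to 6.37 in AdipoQ-LPL mice and 5.79 to 6.19 in control mice of the first set, and 6.40 to 6.72 in AdipoQ-LPL and 6.24 to 6.49 in control mice of the second set. All 4 AdipoQ-LPL mice of the second set were above the Control median of Col11a2, and the difference over both sets was 0.14 ± 0.06 (SE, limma unadjusted p = 0.0377, adjusted p = 0.58). Col24a1 was 4.93 to 5.58 in AdipoQ-LPL mice and 5.17 to 5.35 in control mice of the first set, and 5.79 to 6.18 in AdipoQ-LPL and 5.59 to 5.90 in control mice of the second set, and differed by 0.12 ± 0.07. Over both sets Col24a1 averaged 5.56 in AdipoQ-LPL and 5.57 in control mice, close to the floor of 5. The remaining fibrillar genes, Col2a1, Col11a1 and Col27a1, differed by 0.09, 0.05 and 0.03.

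Of the basement membrane collagens 2 of 8 were above 0 and 6 below, with a class median of -0.10. Without the number set it was -0.21, beside -0.08 over all tested clusters in that fit. The class median of a mouse varied by an SD of 0.09 around the mean of its genotype and set. That SD is a spread between mice and not the error of the genotype difference. The chains Col4a1 and Col4a2 assemble with each other into the network present in nearly all basement membranes. Col4a1 in the first set was 10.05 to 10.34 with a median of 10.26 in AdipoQ-LPL mice, and 10.41, 10.29, 10.06, 10.18 and 10.20 in control mice 1 to 5. Col4a1 in the second set was 10.59, 10.77, 10.89 and 10.68 in AdipoQ-LPL mice 1 to 4, and 10.51 to 10.88 with a median of 10.63 in control mice. The groups overlapped throughout, and the difference of 0.04 ± 0.05 (SE) had a 95% interval of -0.07 to 0.15. Col4a2 was 9.95 to 10.31 in AdipoQ-LPL mice and 9.89 to 10.31 in control mice of the first set, and 10.44 to 10.74 in AdipoQ-LPL and 10.30 to 10.69 in control mice of the second set. Its difference was 0.05 ± 0.06.

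The other type IV chains, which replace Col4a1 and Col4a2 in selected tissues such as the kidney filter, were below 0 without being called. Col4a3 was 5.36 to 6.24 in AdipoQ-LPL mice and 5.52 to 6.64 in control mice of the first set, and 6.03 to 6.28 in AdipoQ-LPL and 5.98 to 6.90 in control mice of the second set, with a difference of -0.18 ± 0.13. Col4a4 differed by -0.16 ± 0.13 and Col4a6 by -0.05 ± 0.09. Col4a5 was 6.93 to 7.38 in AdipoQ-LPL mice and 7.15 to 7.49 in control mice of the first set, and 7.26 to 7.61 in AdipoQ-LPL and 7.16 to 7.99 in control mice of the second set. No AdipoQ-LPL mouse of the second set exceeded the Control median of Col4a5, the difference was -0.14 ± 0.08, and the adjusted p was 0.64 by limma.

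Col15a1 and Col18a1 encode the multiplexins, which link basement membranes to the matrix beneath and whose C-terminal fragments are known as restin and endostatin. Col15a1 in the first set was 9.56 to 10.22 with a median of 9.91 in AdipoQ-LPL mice, and 10.18, 10.47, 9.99, 10.15 and 10.25 in control mice 1 to 5. Col15a1 in the second set was 10.00, 10.38, 10.50 and 10.47 in AdipoQ-LPL mice 1 to 4, and 10.04 to 10.63 with a median of 10.28 in control mice. Thus 1 of 8 AdipoQ-LPL mice was above the Control median of Col15a1 in the first set and 3 of 4 were in the second set. The difference within the first set was -0.32 (exact permutation test over 1287 relabellings, two-sided, p = 0.0179, adjusted p = 0.50 over all tested clusters), and within the second set it was 0.02 (p = 0.86, exact, over 330 relabellings). The interaction of genotype and set had an unadjusted p of 0.0473 and was not called (adjusted p = 0.60 or above for each collagen, by limma). Over both sets Col15a1 differed by -0.17 ± 0.09 (SE, adjusted p = 0.62). Col18a1 was 7.72 to 8.03 in AdipoQ-LPL mice and 7.87 to 8.20 in control mice of the first set, and 8.26 to 8.50 in AdipoQ-LPL and 8.07 to 8.58 in control mice of the second set, and differed by -0.06 ± 0.06.

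**Figure D2:**
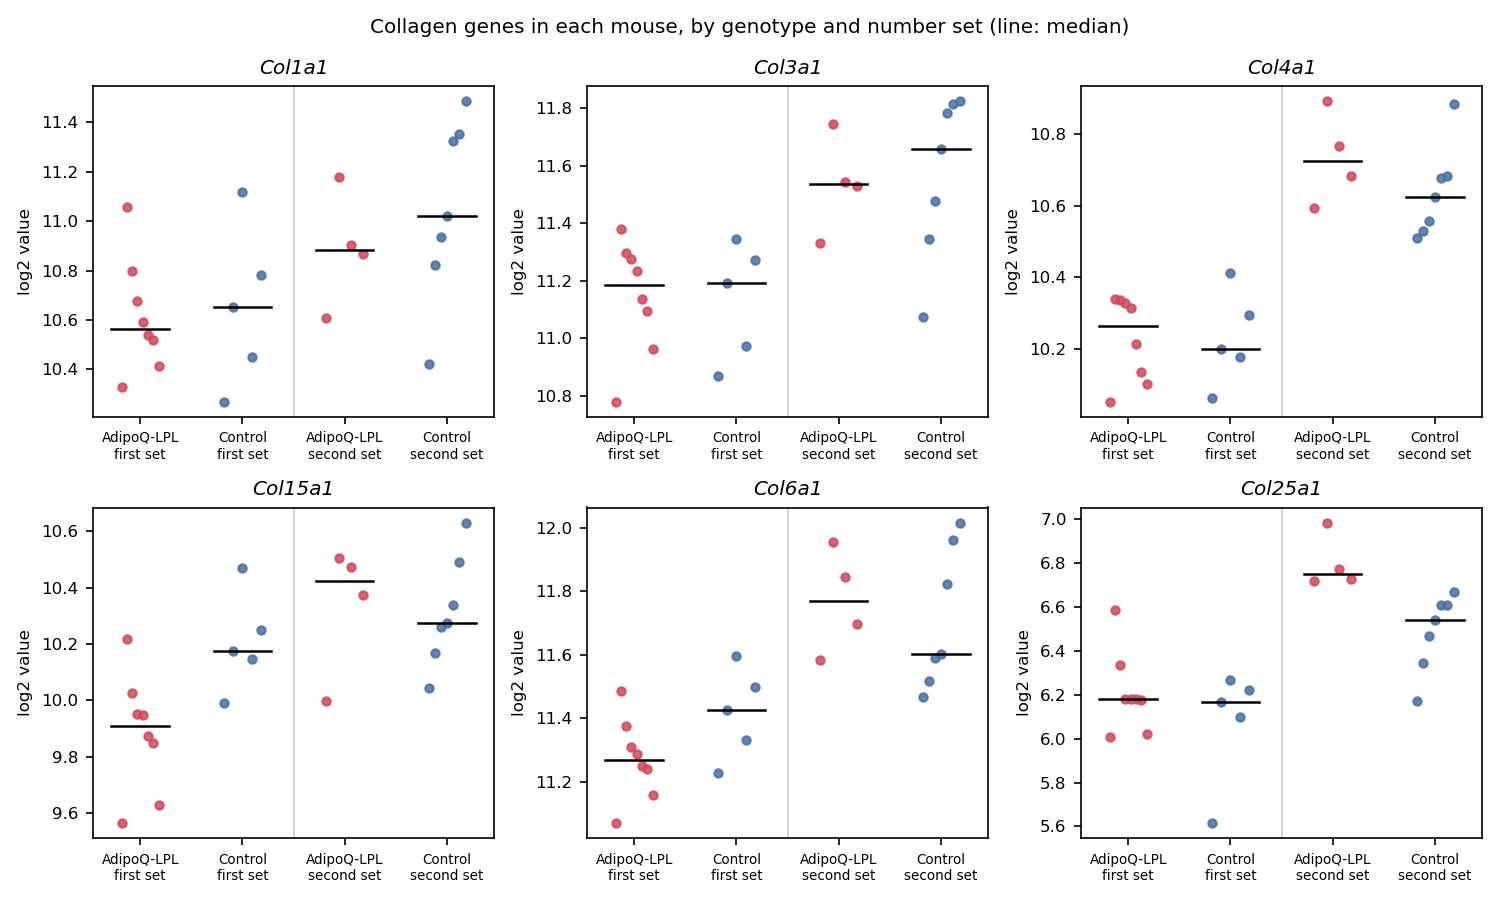
Log2 values (y axis) of Col1a1, Col3a1, Col4a1, Col15a1, Col6a1 and Col25a1 in each of 24 mice (points), by genotype and number set (x axis), with the median of each group as a line. In the first set the genotypes overlap in each panel, and the medians of Col15a1 in the first set are 9.91 in AdipoQ-LPL mice and 10.18 in control mice.

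Among the 24 other collagens, 15 were above 0 and 9 below, with a class median of 0.03. Without the number set it was -0.04, beside -0.08 over all tested clusters in that fit. Col6a1, Col6a2 and Col6a3 encode the chains that assemble into the usual form of type VI collagen, and Col6a3 also yields the fragment endotrophin. Col6a1 was 11.07 to 11.49 in AdipoQ-LPL mice and 11.23 to 11.60 in control mice of the first set, and 11.59 to 11.96 in AdipoQ-LPL and 11.47 to 12.02 in control mice of the second set. Col6a2 was 9.77 to 10.22 in AdipoQ-LPL and 9.96 to 10.36 in control mice of the first set, and 10.42 to 10.88 in AdipoQ-LPL and 10.15 to 10.89 in control mice of the second set. The ranges of both genes overlapped in each set, and the differences were -0.05 ± 0.07 for Col6a1 and -0.05 ± 0.09 for Col6a2. Col6a3 was 8.99 to 9.31 with a median of 9.20 in AdipoQ-LPL mice of the first set, and 9.45, 9.60, 9.38, 9.26 and 9.25 in control mice 1 to 5. No AdipoQ-LPL mouse of the first set exceeded the Control median of Col6a3, and the difference there was -0.21 (exact permutation test, two-sided, p = 0.0101, adjusted p = 0.46 over all tested clusters). Col6a3 in the second set was 9.44, 10.12, 9.85 and 9.76 in AdipoQ-LPL mice 1 to 4, and 9.44 to 10.16 with a median of 9.65 in control mice, a difference of 0.03 (exact p = 0.87). Over both sets Col6a3 differed by -0.10 ± 0.08.

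Col6a4, Col6a5 and Col6a6 encode alternative long chains of type VI collagen and lie next to each other on chromosome 9. Col6a5 is described here because its values were the most variable, a choice made after they were seen. In the first set Col6a5 was 6.96 to 9.66 with a median of 8.09 in AdipoQ-LPL mice, and 7.75, 8.04, 10.03, 7.81 and 8.05 in control mice 1 to 5. Values of the second set were 8.18, 7.69, 9.05 and 7.91 in AdipoQ-LPL mice 1 to 4, and 8.77 to 10.91 with a median of 9.59 in control mice. In the second set 3 of the 4 AdipoQ-LPL mice were below every control mouse, and the other was within the Control range. The SD around the genotype and set means was 0.84, beyond that of 98.9% of tested clusters, whose median was 0.16. The difference was -0.76 ± 0.35 (SE, limma unadjusted p = 0.0380, adjusted p = 0.58), which is a ratio of 0.59 with a 95% interval of 0.36 to 0.97. It was -0.22 within the first set (exact permutation test, two-sided, p = 0.68) and -1.41 within the second set (exact p = 0.0273, adjusted p = 0.49). The interaction was not called (unadjusted p = 0.087), so a difference between the sets was not shown. Without the number set in the model, Col6a5 reached the criteria of the study (-0.94 ± 0.35, p = 0.0123, adjusted p = 0.69), as 0.584% of tested clusters did in that fit. It also reached them without AdipoQ-LPL mouse 8 (-0.89 ± 0.32, limma unadjusted p = 0.0099, adjusted p = 0.35). Without the 3 mice whose arrays stood apart Col6a5 differed by -0.69 ± 0.31 (unadjusted p = 0.0362, adjusted p = 0.67). Over the omission of each mouse in turn its difference lay between -0.89 and -0.58.

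Col6a6 was 7.40 to 7.89 in AdipoQ-LPL mice and 7.23 to 7.69 in control mice of the first set, and 7.61 to 8.20 in AdipoQ-LPL and 7.64 to 8.44 in control mice of the second set. It differed by -0.01 ± 0.10. Col6a4 was 4.61 to 5.19 in AdipoQ-LPL and 4.66 to 5.15 in control mice of the first set, and did not exceed 5.43 in any mouse of the second set. There Col6a4 was 5.43, 5.42, 5.39 and 5.40 in AdipoQ-LPL mice 1 to 4, and 5.05 to 5.30 in control mice, so that the genotypes did not overlap (difference 0.21, exact permutation p = 0.0030, the smallest that 330 relabellings can give, adjusted p = 0.41). In the second set 2 of 43 collagens, Col6a4 and Col25a1, had no overlap between genotypes, beside 1.48% of all tested clusters, and in the first set none had, beside 0.351%. Col6a4 averaged 5.11 in AdipoQ-LPL and 5.09 in control mice over both sets, close to the floor of 5. It is described here after its values were seen.

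**Figure D3:**
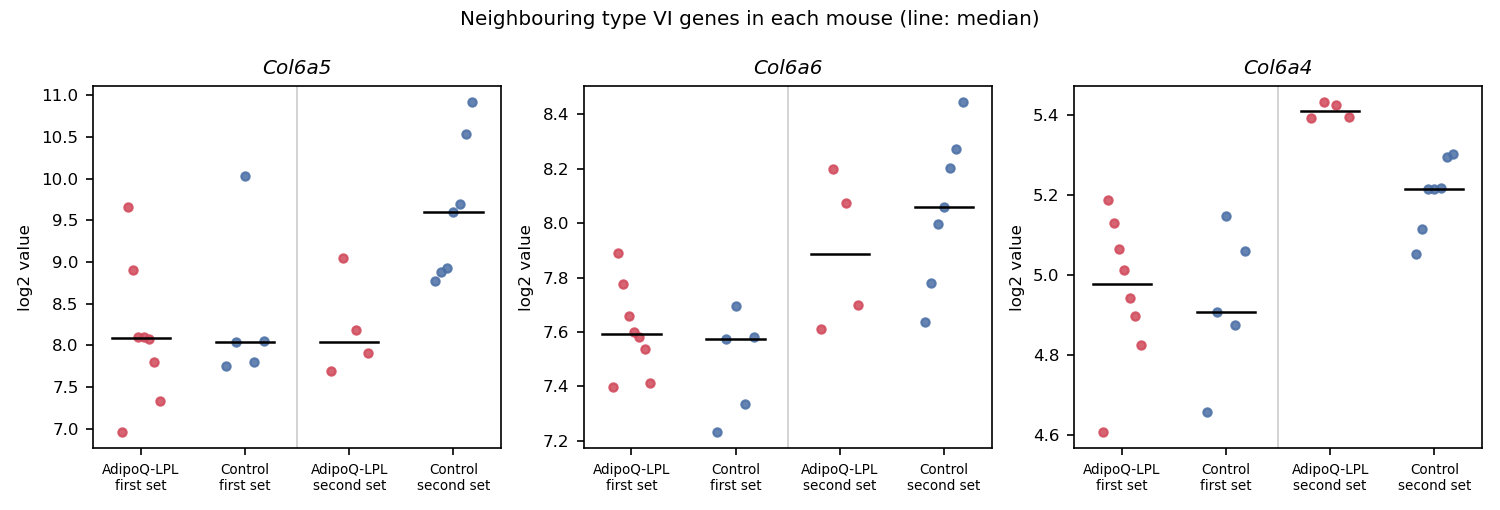
Log2 values (y axis) of the neighbouring genes Col6a5, Col6a6 and Col6a4 in each mouse (points), by genotype and number set (x axis), with the median of each group as a line. The medians of Col6a5 in the second set are 8.05 in AdipoQ-LPL mice and 9.59 in control mice, while those of Col6a6 are 7.89 in AdipoQ-LPL mice and 8.06 in control mice.

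The FACIT collagens, which decorate the surface of fibers, were above 0 in 8 of 9 genes with a median of 0.12, but none was called. Without the number set 3 were above 0 and 6 below, with a median of -0.03. In that fit 4262 of the 20208 tested clusters were above 0, and their median was -0.08. Col9a1, a chain of the cartilage FACIT type IX, was 4.80 to 5.39 in AdipoQ-LPL mice and 4.76 to 5.01 in control mice of the first set, and 5.49 to 5.79 (median 5.63) in AdipoQ-LPL and 5.27 to 5.70 (median 5.43) in control mice of the second set. Its difference was 0.16 ± 0.06 (SE, limma unadjusted p = 0.0175, adjusted p = 0.53). Col9a3 was 5.35 to 5.69 in AdipoQ-LPL and 5.24 to 5.52 in control mice of the first set, and 5.90 to 6.27 in AdipoQ-LPL and 5.78 to 6.04 in control mice of the second set, and differed by 0.12 ± 0.05. Both are close to the floor of 5, and in the fit without the number set their differences were 0.01 (Col9a1) and -0.0016 (Col9a3). The exception below 0 was Col12a1, a FACIT of fiber surfaces in dense connective tissue, which differed by -0.18 ± 0.16. The other FACIT genes, Col9a2, Col14a1, Col16a1, Col19a1, Col20a1 and Col22a1, differed by 0.01 to 0.15.

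Of the membrane-spanning collagens, 3 of 4 were above 0. Col25a1, a transmembrane collagen known from neurons, had the lowest p of the 43. In the first set Col25a1 was 6.01 to 6.59 with a median of 6.18 in AdipoQ-LPL mice, and 5.61, 6.22, 6.10, 6.17 and 6.27 in control mice 1 to 5. Values of the second set were 6.77, 6.99, 6.73 and 6.72 in AdipoQ-LPL mice 1 to 4, and 6.17 to 6.67 with a median of 6.54 in control mice. The genotypes overlapped in the first set and not in the second set, and the difference over both was 0.22 ± 0.08 (SE, limma unadjusted p = 0.0121, adjusted p = 0.51). Col13a1, Col17a1 and Col23a1 differed by 0.12, 0.08 and -0.01. The short-chain genes Col8a1, Col8a2 and Col10a1, measured by 5, 6 and 4 markers, differed by 0.04, -0.09 and 0.06. Col8a1, whose type VIII collagen forms hexagonal lattices near vessels, was 6.78 to 7.73 in AdipoQ-LPL mice and 6.94 to 7.57 in control mice of the first set, and 7.50 to 8.13 in AdipoQ-LPL and 7.59 to 8.28 in control mice of the second set. Col7a1, which makes the anchoring fibrils of skin, differed by 0.03 and Col28a1 by -0.01.

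The second comparison asked whether the genotype difference was the same in both sets. It had the same sign in 20 of the 43 collagens, higher in both for 15 and lower in both for 5, and opposite signs in 23. The share with opposite signs was not computed over all tested clusters, so these counts have no background beside them. At an unadjusted p under 0.05 the interaction term singled out Col19a1 (p = 0.0184) and Col15a1, that is 2 of 43 beside 7.95% of all tested clusters, and it called none of the collagens (0% of all tested clusters were called). Within the first set 2 of 43 had an exact permutation p under 0.05, Col6a3 and Col15a1, both lower in AdipoQ-LPL mice, beside 8.3% of tested clusters. Within the second set 6 of 43 had one, beside 9.07%, with Col6a4, Col11a2, Col19a1, Col24a1 and Col25a1 higher in AdipoQ-LPL mice and Col6a5 lower. No gene was in both lists. Col19a1 averaged 4.99 in AdipoQ-LPL and 5.02 in control mice over both sets, and so passed the floor of 5 through the Control mean. Its means in the first set were 4.73 in AdipoQ-LPL and 4.76 in control mice, below the floor.

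**Figure D4:**
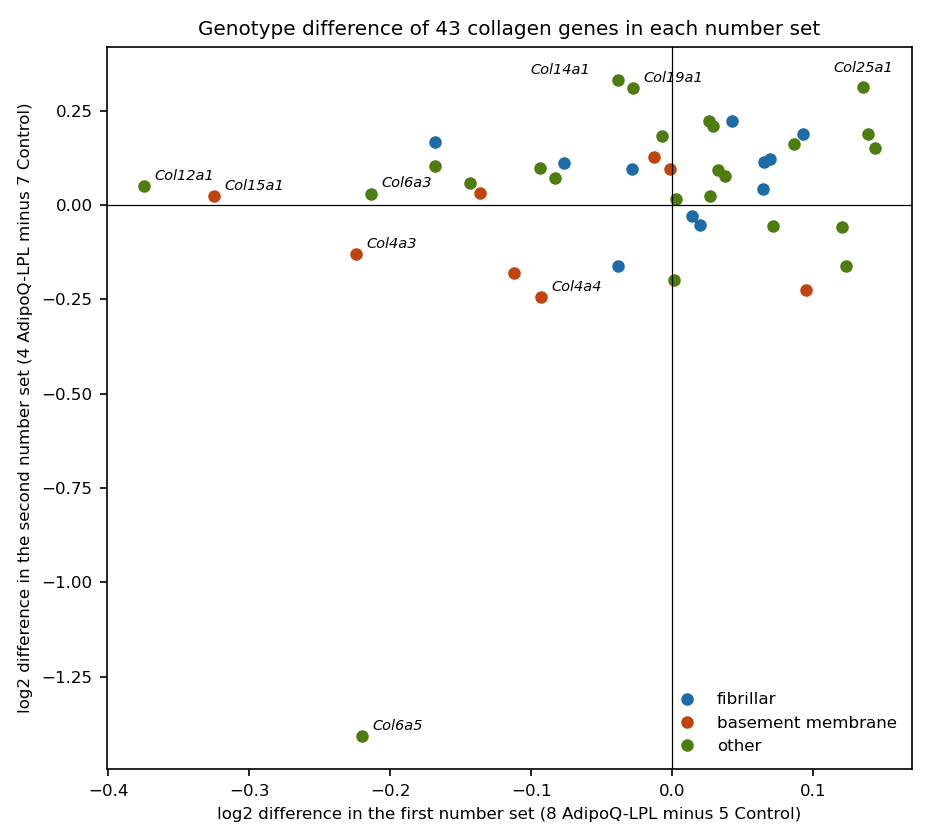
Log2 difference (AdipoQ-LPL minus Control) of each of 43 collagen genes (points, colored by class) in the first number set (x axis, 8 AdipoQ-LPL and 5 control mice) and in the second (y axis, 4 AdipoQ-LPL and 7 control mice). Col6a5 lies apart at -0.22 and -1.41, and 23 genes have opposite signs on the axes.

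The third comparison was between chains, across mice of the same genotype and set. Each log2 value was taken as its deviation from the mean of its genotype and set, over 24 mice. For 13 pairs chosen from known assembly or gene position, Pearson's r was tested by permutation within genotype and set (100000 draws, two-sided), and 10 pairs passed after adjustment over the 13. By Spearman's rho the same 10 passed, with adjusted permutation p-values of 3.2e-05 to 0.021, and Col4a5 with Col4a6 did in addition. The 24 values share array and tissue composition, and over all tested clusters the median r of a collagen was 0.01. That median does not show how often r is large in either direction. Over the 88 pairs of a fibrillar with a basement membrane gene, r ranged from -0.62 to 0.88. The share of arbitrary pairs that would pass was not computed, so the count of 10 has no background beside it. Type I chains followed each other closely (Col1a1 with Col1a2: r = 0.94, rho = 0.93, permutation p = 1e-05, the smallest the draws can give, adjusted p = 2.6e-05), and r was 0.91 without the 2 mice farthest from the median. Within the first and the second set it was 0.95 and 0.94. Col3a1 followed Col1a1 (r = 0.86, rho = 0.86, and 0.81 without 2 mice) and its chromosome 1 neighbour Col5a2 (r = 0.82, rho = 0.81, and 0.74 without 2 mice), with p = 1e-05 for each by permutation. The Col1a2 and Col3a1 windows printed above had no motif in common among those searched. Col5a1 with Col5a2 gave r = 0.66 and rho = 0.58 (permutation p = 0.0060, adjusted p = 0.0098, and r = 0.55 without 2 mice), with r = 0.63 and 0.70 within the first and the second set, neither of which passed alone.

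Chains of the type VI trimer were as tightly linked: Col6a1 gave r = 0.93 and rho = 0.91 with Col6a2, its neighbour on chromosome 10, and r = 0.90 and rho = 0.91 with Col6a3, which is on another chromosome. Without 2 mice these were 0.92 and 0.89, and both had a permutation p of 1e-05. Among adjacent type IV genes, Col4a1 with Col4a2, the genes whose promoter windows overlap, gave r = 0.81 and rho = 0.82 (p = 6e-05 by permutation, and r = 0.80 without 2 mice). The adjacent pair Col4a3 with Col4a4 gave r = 0.77 and rho = 0.59 (p = 0.00072 by permutation, r = 0.57 without 2 mice), and its r was 0.41 without the 3 mice that stand apart. The adjacent genes Col4a5 and Col4a6 were each closer to another collagen, Col4a5 to Col6a5 (r = 0.60) and Col4a6 to Col23a1 (0.65). Col4a5 with Col4a6 gave r = 0.51 and rho = 0.60 (p = 0.061 by permutation, adjusted p = 0.072), and passed by rho (permutation p = 0.0037) but not by r. Within the first set it passed by r (0.64, permutation p = 0.0285, adjusted p = 0.046), and in the second set r was 0.50.

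Other pairs were of different types or not adjacent. Col1a1 with Col6a1 gave r = 0.57 and rho = 0.56 (permutation p = 0.0120, adjusted p = 0.0171, r = 0.57 without 2 mice), and Col15a1 with Col18a1 gave r = 0.52 and rho = 0.55 (p = 0.0131 by permutation, adjusted p = 0.0171, r = 0.45 without 2 mice), neither of which passed within a set alone after adjustment. Col1a1 with Col4a1 gave r = 0.21 and rho = 0.21 (permutation p = 0.36 for each), which did not pass, with r = -0.13 within the first set, 0.54 within the second set and 0.39 without the 3 mice that stand apart. Col8a1 with Col8a2 gave r = 0.08 and rho = -0.0026 (permutation p = 0.74 and 0.99). Its r was -0.26 within the first set, 0.49 within the second set and 0.43 without the 3 mice, and neither set passed.

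As a description, outside the 13 pairs, the closest collagen to Col15a1 was Col5a3 (r = 0.88 over 24 mice), that to Col5a1 was Col6a1 (0.80), and that to Col12a1 was Col6a2 (0.82). Col9a2 ran with several others, with r = 0.85 for Col9a2 and Col11a2, 0.79 for Col9a2 and Col7a1 and 0.75 for Col9a2 and Col2a1. All of these genes were below the mean of their genotype and set in Control 3 and AdipoQ-LPL 8, whose arrays stood apart. The deviations were -0.23 and -0.49 for Col9a2, and -0.29 and -0.38 for Col11a2. In Control 7, which also stood apart, Col9a2 was at 0.04. The r values of this description were not computed again without these mice. The median r was 0.20 over the 55 pairs of fibrillar genes, -0.14 over the 28 pairs of basement membrane genes and 0.08 over the 276 pairs of other genes. Col6a5 was closest to its neighbour Col6a6 (r = 0.78) and to Col1a2 (0.72) among the collagens. Over all tested clusters, the genes most like Col6a5 were Fgl2, a fibrinogen-like secreted protein (r = 0.91), Reln, the matrix protein reelin (0.89), and Ntn1, the guidance cue netrin (0.87), over 24 mice. Their own genotype differences were -0.13, -0.23 and -0.06, and none was called.

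**Figure D5:**
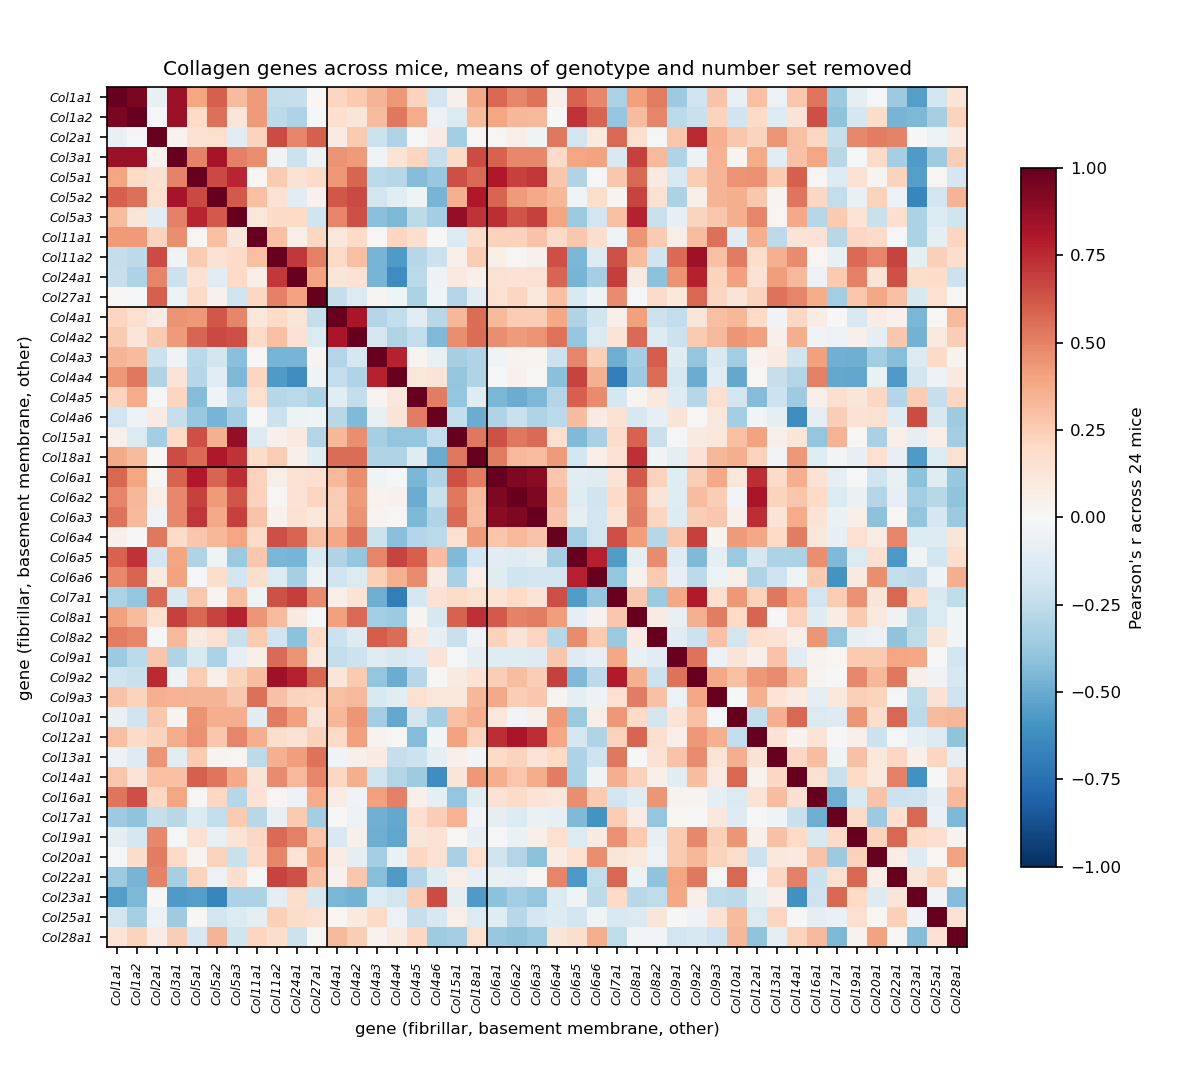
Pearson's r across 24 mice (color, from -1 to 1) for each pair of the 43 collagen genes, ordered as fibrillar, basement membrane and other collagens (both axes), after removal of the means of each genotype and number set. Dark squares mark types I and III, Col4a1 with Col4a2, Col4a3 with Col4a4, and Col6a1 to Col6a3 (r of 0.90 or above within the last). Pairs of different types are dark too, such as Col5a3 with Col15a1 (0.88) and Col9a2 with Col11a2 (0.85).

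Genes that make, process or bind collagen were counted by function beside the chains. None of the tested genes in these lists was called by limma and none reached the criteria of the study. Of 16 genes of chain hydroxylation and glycosylation 7 were above 0 and 9 below (median 0.00), with P4ha3, a prolyl hydroxylase subunit, at 0.14, the galactosyltransferase gene Glt25d1 at 0.09 and P4hb at -0.03 as those of lowest p. Of 12 genes of procollagen folding and export 2 were above 0 and 10 below (median -0.03), with Tmem38b at -0.16, Ctage5 at -0.07 and Sar1b at -0.05. The 9 genes of propeptide cleavage had a median of 0.00, with Mep1a at 0.19, the enhancer Pcolce at -0.10 and its relative Pcolce2 at 0.15. Of 6 crosslinking genes 5 were above 0 (median 0.09), with the lysyl oxidase relatives Loxl4, Loxl2 and Loxl1 at 0.11, 0.18 and 0.09.

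Of 16 genes that bind fibrils, 11 were above 0 (median 0.04), and 4 of them had an unadjusted p under 0.05, which 8.37% of all tested clusters had in either direction. Thbs2, an antiangiogenic matricellular protein that limits fiber size, was at 0.30 ± 0.10 (SE, limma adjusted p = 0.49), the leucine-rich proteoglycan Prelp at 0.13 ± 0.05 (adjusted p = 0.50) and fibronectin, Fn1, at 0.19 ± 0.08 (adjusted p = 0.54). Of 17 basement membrane partners 13 were above 0 (median 0.04), with nidogen, Nid1, at 0.07 and the laminin chains Lamb3 and Lama4 at 0.14 and 0.10. This list and the basement membrane collagens thus had medians of opposite sign, 0.04 and -0.10. Of 13 collagen receptors 8 were above 0 (median 0.03), with the collagen-sensing kinase Ddr2 at 0.15 and the anthrax toxin receptors Antxr2 and Antxr1 at 0.11 and 0.16. An unadjusted limma p under 0.05 was also found for 2 of these 13 receptors and 1 of 6 crosslinking genes, all higher in AdipoQ-LPL mice. In the folding and export list 1 of 12 genes had one and was lower, and the remaining lists by function had none.

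Markers of cell types that the fat pad can hold were measured in the same fit, and none was called. Macrophage markers had 10 of 10 above 0 (median 0.22, with Cd68 at 0.23 and Lyve1 at 0.13), and 5 of the 10 had an unadjusted p under 0.05, led by Csf1r at 0.27 (limma p = 0.0025, adjusted p = 0.49). Their mean level was 9.18 to 9.74 in AdipoQ-LPL mice and 8.60 to 9.36 in control mice of the first set, and 9.14 to 9.46 in AdipoQ-LPL and 8.99 to 9.41 in control mice of the second set. Over all tested clusters 8.37% had an unadjusted limma p under 0.05. So did 3 of 12 fibroblast, 1 of 10 adipocyte and 1 of 10 endothelium markers, all higher in AdipoQ-LPL mice. Among mural markers 1 of 8 did and among tested epididymis markers 1 of 5, both lower. Fibroblast markers, from the cells that make most fibrillar collagen, had 11 of 12 above 0 (median 0.08, with Gsn at 0.08 and Ly6a at 0.03), with mean levels of 9.91 to 10.1 in AdipoQ-LPL mice and 9.73 to 10.2 in control mice of the first set, and 10.2 to 10.4 in AdipoQ-LPL and 9.93 to 10.3 in control mice of the second set.

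Mural cell markers had 6 of 8 below 0 (median -0.28, with Rgs5 at 0.04 and Acta2 at -0.33), and the lowest difference was -1.09. The list median was -0.01 in the first set and -0.49 in the second set. Without the number set in the model it was -0.44. In that fit 4 of the 8 mural markers reached the criteria of the study, as 0.584% of tested clusters did. With the number set none of the mural markers reached them. Their mean level was 8.95 to 9.36 in AdipoQ-LPL mice and 8.99 to 9.60 in control mice of the first set, and 9.32 to 9.55 in AdipoQ-LPL and 9.44 to 11.5 in control mice of the second set, so that the spread was wider in control mice. Of 10 epididymis markers, 5 were below the floor in both genotypes, and the other 5 had 1 above 0 and 4 below, with a median of -0.51 (Lcn5 at 0.07 and Lcn9 at -0.40). Of these Adam7 met the criteria of the study at -1.21 (limma unadjusted p = 0.0110, adjusted p = 0.51), and Crisp1 was at -1.16. Their mean level was 4.79 to 5.17 in AdipoQ-LPL mice and 4.89 to 7.70 in control mice of the first set, and 5.25 to 5.69 in AdipoQ-LPL and 4.87 to 7.16 in control mice of the second set. Adipocyte markers had a median of 0.04 (Fabp4 at 0.01 and Cidec at 0.02), mesothelium markers 0.05 (Upk3b at 0.17 and Gpm6a at 0.01) and endothelium markers -0.03 (Cdh5 at -0.02 and Pecam1 at -0.03). The Schwann cell list had a median of 0.00 (Mbp at 0.01), the skeletal muscle list 0.04 (Acta1 at -0.27 and Tnnc2 at 0.06) and the cartilage and bone list 0.07 (Sox9 at -0.31 and Bglap at -0.13).

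As descriptions over the 24 mice, Col4a1 gave r = 0.60 and Col4a2 0.62 with the endothelium list. Col10a1 and Col28a1 also gave 0.62 with it. Col14a1 gave 0.71 with the fibroblast list, Col4a6 gave 0.78 with the mural list and Col4a3 gave -0.68 with the macrophage list. The largest r of a collagen with a marker list was that of Col4a4 with the cartilage and bone list, at 0.79. Type I chains had low r with the fibroblast list, 0.15 for Col1a1 and 0.16 for Col1a2. Col6a5 gave 0.19 with the mural list, -0.30 with the macrophage list and -0.19 with the fibroblast list. These r values were not computed again without the mice whose arrays stood apart. In those mice Col4a3 was above the mean of its genotype and set, by 0.66 (Control 3), 0.62 (Control 7) and 0.43 (AdipoQ-LPL 8). AdipoQ-LPL 10, which was not among them, had 0.48 for Col4a3. Col4a4 was above its mean in the same 3 mice, by 0.85 (Control 3), 0.66 (Control 7) and 0.53 (AdipoQ-LPL 8). Col4a6 was highest by this measure in Control 6, at 0.58, with the next mouse at 0.25. The part of these cell types in the collagen values was not tested.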

How the data were processed

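Perigonadal fat of 24 mice was measured with an array for each. After RMA by the authors, 41345 transcript clusters had a log2 value per mouse in the deposited matrix. The authors' workbook, from Partek, gave gene symbols and, as another unit, the deposited number of markers of a cluster, and its log2 group means were the authors' own and differed from the matrix means by an SD of 0.35 for AdipoQ-LPL and 0.34 for Control over clusters, so they were not used further. Its p-values and fold changes hold the authors' comparisons and were not used. No source used here states a version of RMA or Partek, or the genome build of the deposited values.

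The 20208 clusters with a symbol and a genotype mean of 5 or more were tested with limma 3.58.1 in R 4.3.3, two-sided, with the number set in the model and Benjamini-Hochberg adjustment over all of them at 0.05. This departs from the t-test of the methods, which was run as an alternative. Within a set every relabelling of the mice was used (scipy 1.17.1). The fit was tested on simulated data. The members, gene lists, pairs and tests were chosen with earlier results of these data known. Named genes were types I, III and V, Col4a1, Col4a2, Col6a1 to Col6a3, Col8a1, Col15a1, Col18a1, the 3 of lowest p in each class, Col6a5 (added after its values were seen), up to 3 of lowest p in each pathway list and the 2 brightest of each marker list, of which 1 gene is not reported here. Ncmap of the Schwann cell list had no match and Adgre1 was read as Emr1. The mice are separate animals, and the number of arrays limits the precision.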

Additional observations from a re-analysis of the deposited data

Results flagged for a closer look

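Of 88 groups of 4 to 8 mice formed by genotype and number set for 22 named collagens, 6 had a mouse far from the others by Dixon's criterion, where chance flags about 1 in 20 groups, or 4.4. In the first set Col6a5 was 10.03 in Control 3, with the nearest control mouse at 8.05. The same mouse had 5.79 for Col11a2, with the nearest at 6.11, and 5.17 for Col24a1, with the nearest at 5.32. AdipoQ-LPL 8 had 5.79 for Col11a2, with the nearest mouse of its group at 6.17. Control 1 had 5.61 for Col25a1, with the nearest at 6.10, and Control 4 had 5.24 for Col9a3, with the nearest at 5.44. Control 3 and AdipoQ-LPL 8 are among the 3 mice whose arrays stand apart as a whole.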

How the results depend on the processing

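No collagen gene was called by limma, or by the methods' t-test after Benjamini-Hochberg adjustment, under any of 38 alternatives, over which the lowest adjusted p of a collagen ranged from 0.31 to 0.87. The count at the criteria of the study was 0 and became 1 without the number set (Col6a5), within the first set (Col15a1), within the second set (Col6a5) and without the AdipoQ-LPL mice 422 to 437 (Col6a5), and ranged from 0 to 1 over the omission of each mouse, being 1 without AdipoQ-LPL 8. The number of all tested clusters at those criteria was 55, against 118 without the number set, 220 and 310 within the first and the second set, 181 with the run of animal numbers, 112 without mice 422 to 437, 91 with no floor and 36 (without Control 3) to 98 (without Control 1) over the omission of each mouse. The number of all tested clusters called was 2, and 1 to 4 under the alternatives. Without the number set, in limma and in the methods' t-test alike, the class medians were -0.085 (fibrillar), -0.21 (basement membrane) and -0.040 (other), beside -0.077 over all tested clusters. The array sets lie 0.33 apart and hold unequal numbers of each genotype.

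Among 22 named genes, 71 of 836 values under alternatives, in 15 genes, had the opposite sign. Without the number set, in both tests, Col5a1 was -0.085, Col5a2 -0.079, Col4a1 -0.072, Col4a2 -0.049, Col8a1 -0.11, Col9a3 -0.0016 and Col24a1 -0.012. Within the first set Col1a2 was 0.020, Col3a1 0.014, Col5a1 -0.077, Col4a1 -0.0015 and Col4a2 -0.013. Within the second set Col5a3 was 0.17, Col6a1 0.059, Col6a2 0.10, Col6a3 0.030, Col8a1 -0.058, Col15a1 0.023 and Col18a1 0.031. With the run of animal numbers Col3a1 was 0.028, Col5a3 0.13, Col6a1 0.011 and Col18a1 0.030, and without mice 422 to 437 Col5a3 was 0.098 and Col6a1 0.0077. With array weights Col1a2 was 0.025 and Col5a1 -0.0043. With arrays centred on the median Col1a2 was 0.0041, Col3a1 0.011 and Col5a3 0.00028, and with quantile normalization Col3a1 was 0.0064. Omission of Control 3, Control 7 and AdipoQ-LPL 8, chosen after seeing the data, gave Col1a2 0.020, Col6a2 0.0036 and Col8a1 -0.0016. Over the omission of each mouse Col1a2 ranged from -0.048 to 0.033, Col3a1 from -0.041 to 0.024, Col5a1 from -0.011 to 0.045, Col5a3 from -0.061 to 0.030 and Col8a1 from -0.0082 to 0.10. For Col8a1 with Col8a2 r was -0.26 within the first set, 0.49 within the second set and 0.43 without the 3 mice, and for Col1a1 with Col4a1 it was -0.13, 0.54 and 0.39. Col4a5 with Col4a6 passed within the first set (r = 0.64, permutation adjusted p = 0.046). The cause of these changes was not tested.

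The replicate numbers of the labels were not taken to pair the mice. For example, Control 1 is animal 289 of the first set and AdipoQ-LPL 1 is animal 844 of the second. Residual correlations were over 0.1 in 6 of 12 same-numbered pairs (range -0.43 to 0.26). These correlations cannot decide the question, because differently numbered pairs were not compared. With the replicate number as a block together with the number set, 0 collagens were called and 0 reached the criteria of the study, with class medians of 0.03, -0.10 and 0.04.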
